A study of Homo sapiens with 8 samples.

Results

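The inflammasome genes described here are 9 genes of the pathway that turns danger signals inside a cell into active caspase-1. They are the adaptor PYCARD, the sensors AIM2, NLRP1 and NLRC4, the caspases CASP1 and CASP4, the pore former GSDMD and the cytokines IL1B and IL18. A gene counted as a member with values of its own where the platform annotation tied a probe set to that gene alone, and 8 of the 9 had such a probe set, among 18417 genes so named. PYCARD was chosen by its measured log2 values, since it was lower on all 4 arrays labelled ABCB5-positive, so its difference between the populations is given as a description with no test. NLRP1 had no probe set of its own. The 1 probe set it shares with LOC728392 read between 6.96 and 7.32 on the log2 scale over the 8 arrays, under the background threshold explained further on in all of them, and it enters no count.

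Inflammasomes are assemblies in the cytosol in which a sensor recognises a microbial or damage signal and recruits PYCARD, also called ASC, through matching pyrin or CARD domains. PYCARD polymerises and gathers CASP1, which cuts the precursors of IL1B and IL18 into secreted cytokines and cuts GSDMD into a fragment that opens pores in the plasma membrane. CASP4 binds bacterial lipopolysaccharide directly and cuts GSDMD without those sensors. Gut epithelium is known for steady production of IL18, while IL1B is known chiefly from myeloid cells.

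The study sorted cultured tumour cells with an antibody against ABCB5, a drug efflux pump of the ABC family, and hybridised the RNA to Human Gene 1.0 ST arrays. Each of the 4 established human lines COLO741, HCT116, HT29 and SW620 supplied a pair of arrays, one for cells labelled ABCB5-positive and one for cells labelled ABCB5-negative, which makes 4 arrays a group. All lines grew in RPMI medium with serum, and no drug or other treatment is named. The labels call COLO741 and HCT116 colon carcinoma, HT29 colon adenocarcinoma and SW620 a lymph node metastasis of colon carcinoma, while the series design lists SW480 in place of SW620. The lines are separate, but no label speaks of repeated cultures, so p-values measure the spread between these arrays, part of which may be technical.

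ABCB5 itself read 8.14 in COLO741 cells labelled ABCB5-positive and 9.42 in COLO741 cells labelled ABCB5-negative, opposite to the labels, and between 5.24 and 5.69 on the 6 arrays of the other lines. Directions drawn from COLO741 therefore rest on labels that its ABCB5 transcript goes against. On the 6 arrays of the other lines the ABCB5 transcript was under background, so it cannot speak for or against their labels. COLO741 also stood apart by cell type markers. Of 14 intestinal epithelial markers 8 were above background on both COLO741 arrays, with linear levels summing to 7087 (ABCB5-positive) and 6577 (ABCB5-negative), against 75189 to 142028 on the arrays of the other lines. The count above background on both arrays was 11 in HCT116, 13 in HT29 and 12 in SW620. All 9 melanocyte markers measured were above background on both COLO741 arrays, with sums of 67049 (ABCB5-positive) and 81459 (ABCB5-negative), against 1320 to 1533 on the other arrays. The count on both arrays was 5 in HCT116, 2 in HT29 and 3 in SW620. MC1R read higher in SW620, at 8.81 (ABCB5-positive) and 8.67 (ABCB5-negative), than in COLO741, at 8.40 and 8.17. The COLO741 marker sums thus do not follow its colon carcinoma label, and its origin was not tested.

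Background was judged by 360 probe sets for olfactory receptors, which cultured tumour cells such as these are not expected to transcribe. A value is called above background where it exceeds the 95th percentile of those probe sets on the same array, which lay between 7.38 and 7.55 (log2). PYCARD, CASP4 and GSDMD were above it on all 8 arrays, IL18 on 4 (both of HCT116 and of HT29), IL1B on 2 (both of COLO741), and CASP1, AIM2 and NLRC4 on 0. Among all genes tested 66.7% were above it on all 8 arrays. A gene was tested where its mean reached the median of the olfactory receptor probe sets, 5.73. NLRC4 lay just inside at 5.97, while CASP1 at 5.03 and AIM2 at 4.49 lay outside, so 6 members were tested with 16910 genes, and CASP1 and AIM2 have p-values only from the fit without that filter.

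The plot of levels on each array shows which members carried a signal in which line, and how far the lines lay apart.

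**Figure D1:**
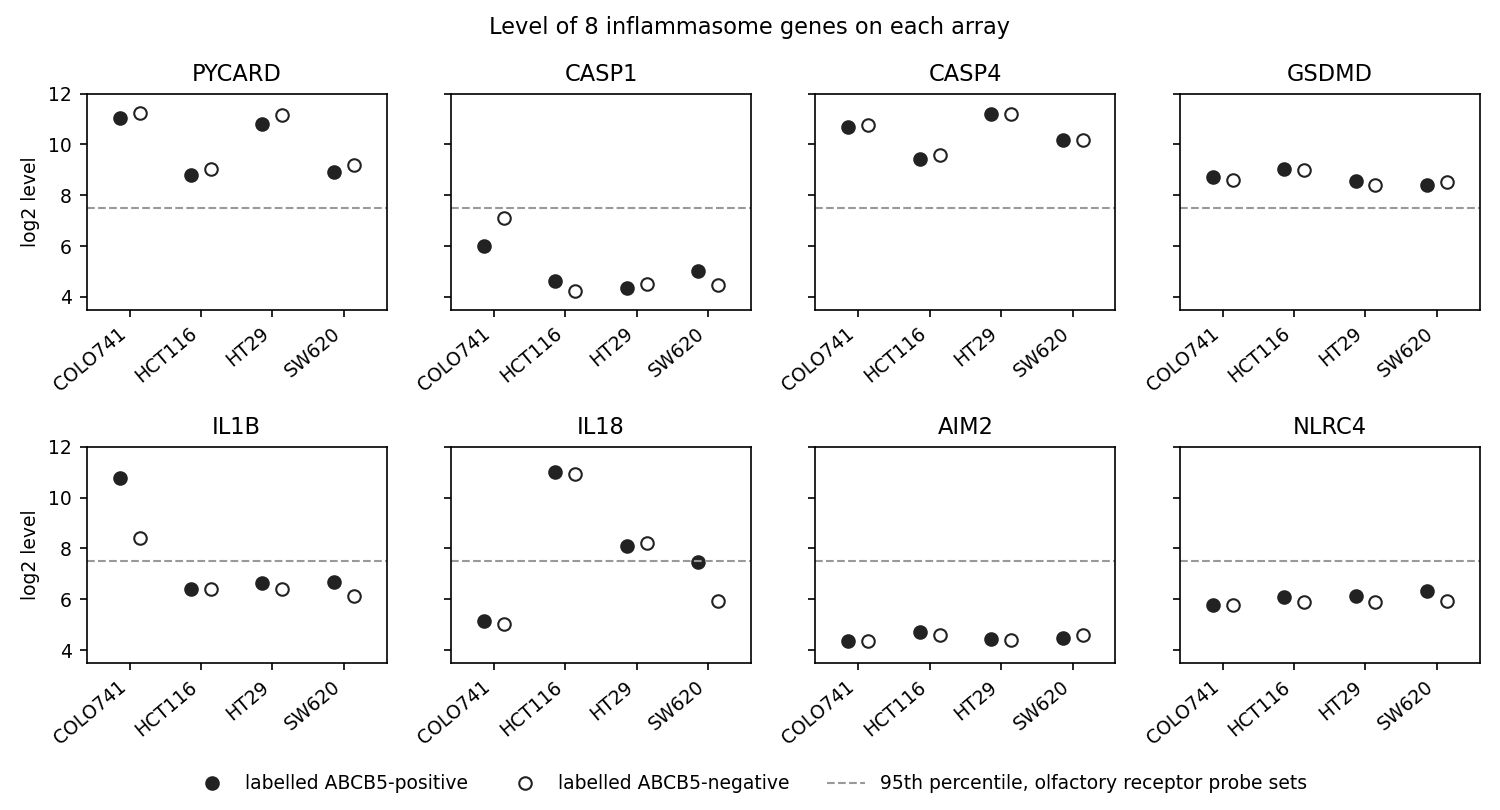
Log2 level of the 8 inflammasome genes with a probe set of their own on each of the 8 arrays, by cell line, with filled points for cells labelled ABCB5-positive and open points for ABCB5-negative. The dashed line is the mean over arrays of the 95th percentile of olfactory receptor probe sets. IL1B stands above it in COLO741 alone, and IL18 in HCT116 and HT29.

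RefSeq's table for GRCh38.p14 held promoter sequence for 5 of the 9 members. The 250 bases before the start are shown for 3 of these 5, those above background on any array. AIM2 and NLRC4, above background on 0 arrays, are not shown. PYCARD was bright in every line and shifted a little between the populations. CASP4 was bright in every line and steady between the populations, though not between the lines, and IL1B was above background in 1 line. Capitals mark CG pairs, the sites of DNA methylation, all sequences run 5′ to 3′, and each gene lies on the minus strand.
PYCARD, chr16:31202761-31203010: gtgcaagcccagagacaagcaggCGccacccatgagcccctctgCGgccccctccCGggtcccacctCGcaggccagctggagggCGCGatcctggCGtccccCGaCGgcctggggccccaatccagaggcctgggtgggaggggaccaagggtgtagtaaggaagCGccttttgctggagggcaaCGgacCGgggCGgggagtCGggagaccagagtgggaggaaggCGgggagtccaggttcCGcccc
CASP4, chr11:104968575-104968824: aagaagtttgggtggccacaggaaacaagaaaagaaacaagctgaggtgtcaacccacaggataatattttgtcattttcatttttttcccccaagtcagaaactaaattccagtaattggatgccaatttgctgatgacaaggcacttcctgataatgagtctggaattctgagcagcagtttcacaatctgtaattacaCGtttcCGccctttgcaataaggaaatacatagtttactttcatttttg
IL1B, chr2:112836780-112837029: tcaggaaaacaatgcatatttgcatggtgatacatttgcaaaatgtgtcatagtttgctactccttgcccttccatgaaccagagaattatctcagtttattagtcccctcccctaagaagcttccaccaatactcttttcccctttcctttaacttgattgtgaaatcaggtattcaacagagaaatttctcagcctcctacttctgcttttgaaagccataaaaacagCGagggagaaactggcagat
The PYCARD window holds 16 CG pairs, and 41.0% of the 35116 promoters of the table hold at least as many. The CASP4 window holds 2 and the IL1B window 1. The letters GGGCGG, the core of the GC box bound by SP1, occur in the PYCARD window 2 times and in the CASP4 window 1 time on either strand, and in 42.6% of all promoters. The letters TTCNNNGAA, the spacing bound by STAT factors, occur 1 time in the IL1B window and in 6.57% of all promoters. Methylation was not measured in these samples, and a match of letters is a description only.

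Between the lines, 5 of the 6 members tested passed the limma F test, against 67.2% of all genes. The tested member that did not pass was NLRC4 (limma adjusted p = 0.127, and 0.0491 without the COLO741 ABCB5-negative array). For COLO741 against the mean of the other lines 4 of the 6 passed, against 49.7% of all genes. Higher in COLO741 were PYCARD, CASP4 and IL1B, where 23.7% of all genes passed in that direction, and lower was IL18, where 26% did. PYCARD was higher in COLO741 by 1.49 and CASP4 by 0.44 on the log2 scale (limma adjusted p = 9.88e-06 and 0.00242). Each line thus held its own combination of bright members, with PYCARD, CASP4 and IL1B high in COLO741, IL18 and GSDMD highest in HCT116, and PYCARD and CASP4 high in HT29 beside an intermediate IL18. In SW620 PYCARD was in the low pair with HCT116, and IL1B was under background as in HCT116 and HT29. IL18 was under background on both SW620 arrays, unlike in HCT116 and HT29. By pair of lines, 5 of the 6 tested members passed for COLO741 against HCT116 and for COLO741 against SW620, beside 45.9% and 47% of all genes. For COLO741 against HT29 it was 3 members beside 45.3% of all genes, for HCT116 against HT29 4 beside 39%, for HCT116 against SW620 3 beside 38.9% and for HT29 against SW620 3 beside 40%. The line means of PYCARD, CASP4, IL1B and IL18 ranged over at least 1 log2 unit, 4 of 6 tested members, beside 31.5% of all genes. These shares are those of lines that differ in most genes, and nothing is read from them about the members as a group.

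PYCARD, the adaptor, read lower in the cells labelled ABCB5-positive of each line. Its log2 level on the ABCB5-positive arrays was 11.04 in COLO741, 8.81 in HCT116, 10.79 in HT29 and 8.91 in SW620. On the ABCB5-negative arrays it was 11.25 in COLO741, 9.05 in HCT116, 11.15 in HT29 and 9.20 in SW620. The lines spread so widely that the 2 groups overlap, and the difference shows only within lines. The differences, ABCB5-positive minus ABCB5-negative, were -0.21 in COLO741, -0.24 in HCT116, -0.35 in HT29 and -0.29 in SW620, a mean of -0.27 ± 0.06 (SD, n = 4). In linear terms PYCARD was 1.16-fold lower in COLO741 and 1.28-fold lower in HT29, the lowest and highest of the 4 folds. This sign is what PYCARD was picked for, and 6.98% of the genes tested were lower on all 4 arrays labelled ABCB5-positive. With the COLO741 arrays exchanged, to follow its ABCB5 transcript, the mean of PYCARD was -0.17, PYCARD was no longer lower in COLO741, and the share of genes lower in all 4 lines was 5.39%. CASP4, the next nearest member to that rule, was lower in 2 lines and 0.003 above its ABCB5-negative array in both HT29 and SW620. In bulk samples such as these, fewer cells holding a transcript and less of it per cell cannot be told apart.

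PYCARD differed between the lines, a contrast that had no part in choosing it. Its line means were 11.14 in COLO741, 8.93 in HCT116, 10.97 in HT29 and 9.06 in SW620, which forms a high and a low pair of lines. It was 4.65-fold higher in COLO741 than in HCT116 (limma adjusted p = 5.84e-06) and 4.25-fold higher in COLO741 than in SW620 (limma adjusted p = 6.38e-06). It was 4.12-fold lower in HCT116 than in HT29, a log2 difference of -2.04 with a 95% interval of -2.25 to -1.84 (limma adjusted p = 1.31e-05), and 3.76-fold higher in HT29 than in SW620. Within each pair the neighbours were not told apart. COLO741 minus HT29 was 0.17 with a 95% interval of -0.03 to 0.38 (limma adjusted p = 0.148). HCT116 minus SW620 was -0.13 with a 95% interval of -0.34 to 0.08 (limma adjusted p = 0.273).

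Beside PYCARD on chromosome 16 lies PYDC1, a pyrin-only protein that can block PYCARD, with TRIM72 between them in gene order. PYDC1 was above background on 0 of 8 arrays, with levels of 6.90 to 7.31. TRIM72, a membrane repair protein of muscle, had line means of 8.11 in COLO741, 9.06 in HCT116, 8.19 in HT29 and 7.76 in SW620. The highest TRIM72 mean was thus in HCT116 and the lowest in SW620, both of them lines of the low PYCARD pair. The genes whose pattern over the 8 arrays came nearest to PYCARD, after each gene's own mean was subtracted, were UBL3 at a root mean square difference of 0.20 log2 units, TENM3-AS1 at 0.24 and AUTS2 at 0.24.

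CASP4, which senses lipopolysaccharide in the cytosol, kept nearly the same level in both populations of a line. It read 10.69 in COLO741, 9.43 in HCT116, 11.19 in HT29 and 10.19 in SW620 cells labelled ABCB5-positive, against 10.78 in COLO741, 9.58 in HCT116, 11.18 in HT29 and 10.19 in SW620 cells labelled ABCB5-negative. The mean difference of CASP4 was -0.06 ± 0.08 (SD, n = 4), with a 95% interval of -0.21 to 0.09 (limma adjusted p = 0.911). Between lines the order of CASP4 was HT29, COLO741, SW620 and HCT116, and every pair of lines passed the limma test. CASP4 was 3.21-fold lower in HCT116 than in HT29 (limma adjusted p = 3.04e-05) and 2.35-fold higher in COLO741 than in HCT116. The smallest step was 1.37-fold, lower in COLO741 than in HT29 (limma adjusted p = 0.00593). The genes nearest in pattern to CASP4 were IDH2 at a root mean square difference of 0.09 log2 units, LPIN2 at 0.11 and TPM1 at 0.12.

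CASP1, the central protease, lay under the background threshold on all 8 arrays, so its values have no fold and no test between lines is given. It read 6.02 in COLO741, 4.61 in HCT116, 4.33 in HT29 and 5.01 in SW620 cells labelled ABCB5-positive, against 7.08 in COLO741, 4.25 in HCT116, 4.50 in HT29 and 4.47 in SW620 cells labelled ABCB5-negative. Both COLO741 values exceed all 6 values of the other lines, which reach 5.01. Within COLO741 the difference of CASP1, ABCB5-positive minus ABCB5-negative, was -1.07, larger in size than 98.6% of the genes tested in that line, while HCT116 and SW620 gave 0.36 and 0.54 and HT29 -0.17. The contrast of the COLO741 difference with that of the other lines was -1.31 (limma adjusted p = 0.172, without the filter). Over the lines CASP1 averaged -0.08 ± 0.72 (SD, n = 4), with a 95% interval of -0.69 to 0.52 (limma adjusted p = 0.960, without the filter). The genes nearest in pattern to CASP1 were PABPC5 at 0.22, PCDH20 at 0.23 and TRIM63 at 0.24 log2 units.

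CASP1 lies on chromosome 11 in a run of 5 protein-coding genes that starts with CASP4 and goes on with CASP5, CASP1, CARD16 and CARD18, in RefSeq's gene order. CARD16, a short relative of CASP1 that holds its CARD domain and can bind it, was above background in COLO741 alone. It read 8.04 (ABCB5-positive) and 8.31 (ABCB5-negative) in COLO741 and 4.69 to 5.35 on the other 6 arrays, all under background, and was at least 1.60-fold higher in COLO741. CARD16 passed the filter only through COLO741, so no test is given. CARD16 and CASP1 are near copies in part of their sequence, so probe sets may not separate them fully. CASP5, a second lipopolysaccharide sensor, and CARD18, an inhibitor of CASP1, read 5.45 to 5.83 and 5.07 to 5.56 and were above background on 0 of 8 arrays. The plot of the clusters shows these levels by line.

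**Figure D2:**
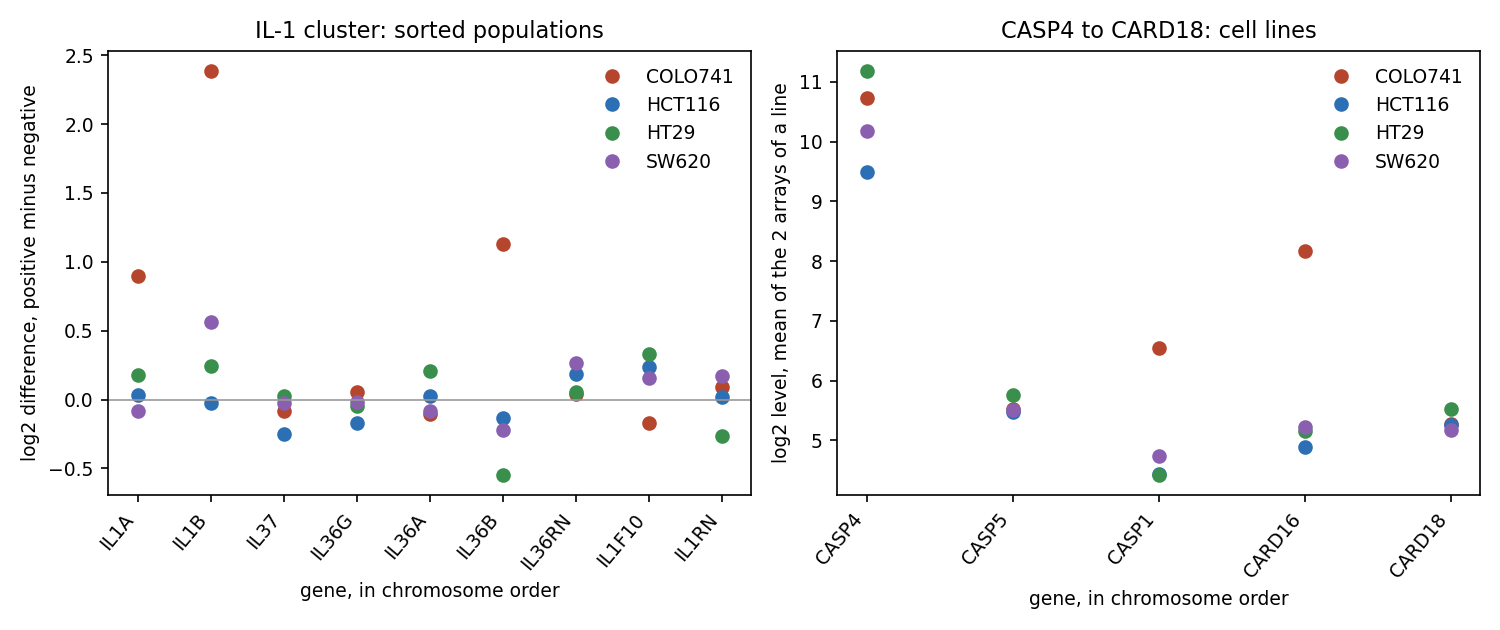
Left, log2 difference between arrays labelled ABCB5-positive and ABCB5-negative for the 9 protein-coding genes from IL1A to IL1RN in chromosome order, 1 point per cell line. Right, log2 level (mean of the 2 arrays of a line) for the 5 genes from CASP4 to CARD18. In COLO741 the difference was 2.39 for IL1B, 1.13 for IL36B and 0.90 for IL1A, and CARD16 was above background in COLO741 alone, while CASP1 was under it in every line.

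GSDMD, whose cut fragment forms the pores of pyroptosis, varied least among the members above background. It read 8.70 in COLO741, 9.01 in HCT116, 8.55 in HT29 and 8.38 in SW620 cells labelled ABCB5-positive, against 8.61 in COLO741, 8.996 in HCT116, 8.42 in HT29 and 8.52 in SW620 cells labelled ABCB5-negative. The populations did not separate, with a mean difference of 0.02 ± 0.12 (SD, n = 4) and a 95% interval of -0.14 to 0.19 (limma adjusted p = 0.959). HCT116 was the highest line. GSDMD was 1.43-fold higher in HCT116 than in HT29 (limma adjusted p = 0.00656), 1.47-fold higher in HCT116 than in SW620 (limma adjusted p = 0.00529) and 1.27-fold lower in COLO741 than in HCT116 (limma adjusted p = 0.0267). Among COLO741, HT29 and SW620 0 of the 3 pairs passed, with limma adjusted p from 0.140 to 0.817. The F test call of GSDMD between lines (limma adjusted p = 0.00767) was lost without either HCT116 array, at adjusted p of 0.0649 and 0.0682.

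IL1B, the proinflammatory cytokine that caspase-1 matures, was above background in COLO741 alone and there stood far higher in the cells labelled ABCB5-positive. It read 10.78 in COLO741, 6.40 in HCT116, 6.63 in HT29 and 6.68 in SW620 cells labelled ABCB5-positive, against 8.40 in COLO741, 6.42 in HCT116, 6.39 in HT29 and 6.12 in SW620 cells labelled ABCB5-negative. The difference within COLO741 was 2.39 or 5.22-fold, larger in size than 99.9% of the genes tested in that line, with 1 array per population and no test. It runs with the labels and against the ABCB5 transcript, which was lower in the same array. The other lines gave -0.02, 0.24 and 0.56 in HCT116, HT29 and SW620, all from values under background. Over the lines the mean of IL1B was 0.79 ± 1.09 (SD, n = 4), with a 95% interval of -0.11 to 1.70 (limma adjusted p = 0.898), and it was 0.26 ± 0.29 (SD, n = 3) without COLO741. With the COLO741 arrays exchanged, to follow the ABCB5 transcript in place of the labels, the mean of IL1B was -0.40.

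The COLO741 difference of IL1B exceeded the mean difference of the other 3 lines by 2.12, with a 95% interval of 1.52 to 2.73 and a limma adjusted p of 0.0550, short of the threshold. COLO741 is a single line in that contrast and was assumed to vary like the others. The spread of IL1B used there came from the other 3 lines, all under background, moderated by the variances of all genes. The interval and p thus do not measure how IL1B varies where it is above background. In the same contrast 57 genes passed, 0.337% of those tested, and without SW620 the adjusted p of IL1B was 0.0364, within a range of 0.0364 to 0.0715 over the 5 alternatives run for this contrast. Between lines IL1B was at least 4.12-fold higher in COLO741 than in HCT116, at least 4.28-fold higher than in HT29 and at least 4.45-fold higher than in SW620, each against the background threshold of the dimmer arrays. These bounds rest on the mean of the COLO741 arrays. From the ABCB5-positive array alone they are 9.43 to 10.2, and from the ABCB5-negative array alone 1.80 to 1.95. COLO741 against the mean of the other lines passed (limma adjusted p = 0.00117), as it did with either COLO741 array left out, where the fitted log2 difference of 3.15 became 2.09 without the ABCB5-positive and 4.21 without the ABCB5-negative array. The lines set against COLO741 were under background, so these differences are between read values and are not folds. Among the other lines 0 of the 3 pairs passed, with limma adjusted p from 0.897 to 0.992.

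IL1B lies on chromosome 2 among 9 protein-coding genes of the IL-1 family, all measured. In COLO741 its neighbour IL1A, a cytokine active without caspase-1, read 7.09 (ABCB5-positive) and 6.20 (ABCB5-negative), a difference of 0.90, and was above background on 0 arrays. IL36B, named after its values were seen, read 7.64 (ABCB5-positive) and 6.52 (ABCB5-negative) in COLO741, a difference of 1.13. The other 6 genes of the cluster differed by -0.17 to 0.09 in COLO741. IL1RN, the antagonist that blocks the IL-1 receptor, was above background in HT29 alone, where it read 9.49 (ABCB5-positive) and 9.76 (ABCB5-negative). The genes nearest in pattern to IL1B were MAGEC2 at a root mean square difference of 0.21 log2 units, PLPP4 at 0.27 and NLGN4X at 0.27.

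IL18, the caspase-1 substrate that intestinal epithelium is known to make, had the widest range over the lines of any member. It read 5.13 in COLO741, 11.03 in HCT116, 8.09 in HT29 and 7.48 in SW620 cells labelled ABCB5-positive, against 5.03 in COLO741, 10.94 in HCT116, 8.21 in HT29 and 5.93 in SW620 cells labelled ABCB5-negative. The order of the line means was HCT116, HT29, SW620 and COLO741, and all 6 pairs passed the limma test, with adjusted p from 5.28e-05 to 0.0236. The order of SW620 over COLO741 rests on values under background in both lines and is no order of measured levels. IL18 was 7.13-fold higher in HCT116 than in HT29 and at least 11.7-fold higher in HCT116 than in SW620. Against COLO741, where it was under background, IL18 was at least 11.2-fold higher in HCT116 and at least 1.58-fold higher in HT29, and COLO741 against the mean of the other lines passed (limma adjusted p = 0.000156). The genes nearest in pattern to IL18 were MAOB at a root mean square difference of 0.65 log2 units, CPNE8 at 0.83 and CXCL16 at 0.93. These were further off than the nearest genes of PYCARD, CASP1, CASP4 and IL1B, the other members for which such genes were sought.

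Within lines IL18 differed by 1.55 in SW620, larger in size than 99.8% of the genes tested there, and by -0.11 to 0.11 in the other 3 lines. Both SW620 values of IL18 lay under background, 7.48 in the ABCB5-positive array by a narrow margin, and no fold is given. Over the lines the mean of IL18 was 0.41 ± 0.77 (SD, n = 4), with a 95% interval of -0.24 to 1.05 (limma adjusted p = 0.898), and it was 0.02 ± 0.12 (SD, n = 3) without SW620.

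The sensors were near or under the level of the background probe sets. AIM2, which binds DNA in the cytosol, read 4.34 to 4.71 over the 8 arrays, and its difference between populations was 0.01 ± 0.09 (SD, n = 4; limma adjusted p = 0.979, without the filter). NLRC4, which answers bacterial flagellin together with NAIP, read 5.77 in COLO741, 6.08 in HCT116, 6.14 in HT29 and 6.33 in SW620 cells labelled ABCB5-positive, against 5.77 in COLO741, 5.88 in HCT116, 5.89 in HT29 and 5.91 in SW620 cells labelled ABCB5-negative. The NLRC4 differences were -0.01 in COLO741, 0.19 in HCT116, 0.25 in HT29 and 0.42 in SW620, a mean of 0.21 ± 0.18 (SD, n = 4) with a 95% interval of 0.01 to 0.41. The unadjusted p of NLRC4 from limma was 0.0389 and the adjusted p 0.898, and no array put it above background.

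Over the members other than PYCARD, which carries no test here, 0 of the 5 tested passed between the populations, and 0% of all 16910 genes did (744 at an unadjusted p under 0.05). At an unadjusted p under 0.05 it was 1 of the 5, NLRC4, which was higher, against 4.4% of all genes in either direction and 2.62% higher. The median difference over the 7 measured members without PYCARD was 0.02, and over all genes tested it was -0.005. Of the 7 members 5 were higher, beside 48% of all genes tested. The direction of each member over the lines is drawn in the plot of differences between the populations.

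**Figure D3:**
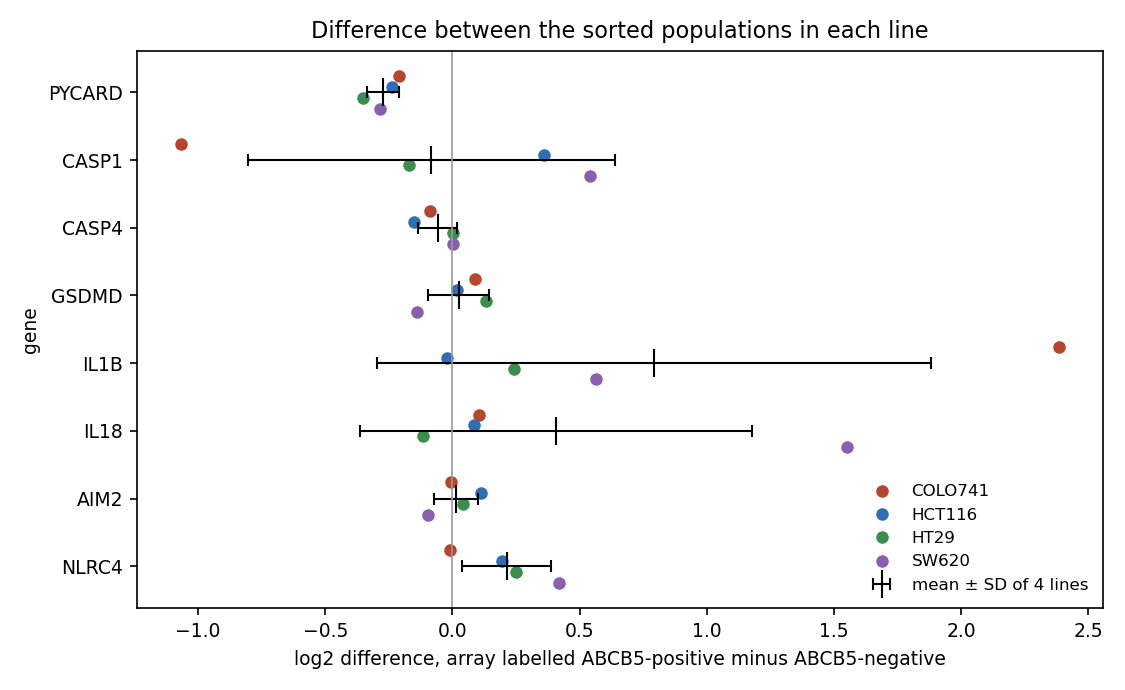
Log2 difference, array labelled ABCB5-positive minus array labelled ABCB5-negative, for the 8 inflammasome genes. Points are cell lines, and the bar is the mean ± SD of the 4 lines. PYCARD lies between -0.35 and -0.21 in every line, IL1B reaches 2.39 in COLO741 alone and IL18 reaches 1.55 in SW620 alone.

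Differences of at least 1 log2 unit within a line were IL1B and CASP1 in COLO741 and IL18 in SW620, with 0 members in HCT116 and HT29. Such differences were found in 1.63% of the genes tested in COLO741, 0.0296% in HCT116, 0.296% in HT29 and 0.615% in SW620.

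In SW620, 5 of the 7 members without PYCARD were higher in the array labelled ABCB5-positive, with a median of 0.42. The count was also 5 of 7 in HCT116 and in HT29, with medians of 0.08 and 0.04, and 3 of 7 in COLO741, with a median of -0.004. The medians of all genes tested were -0.02 in COLO741, -0.01 in HCT116, -0.005 in HT29 and 0.02 in SW620. In SW620 the higher members, besides IL18, were IL1B at 0.56, CASP1 at 0.54, NLRC4 at 0.42 and CASP4 at 0.003. Of these higher members only CASP4 was above background on the SW620 arrays, and the others were under it on both. Most macrophage and monocyte markers were also higher in the SW620 array labelled ABCB5-positive. Of the 17 listed 16 were measured, 12 of the 16 were higher in the SW620 cells labelled ABCB5-positive, and their median difference was 0.56. Their linear levels summed to 7038 in the SW620 ABCB5-positive array and 3597 in the SW620 ABCB5-negative array, within 4005 to 23563 over the ABCB5-positive arrays and 3597 to 26002 over the ABCB5-negative arrays. The highest of these sums were those of HT29, where LYZ alone read 14.27 (ABCB5-positive) and 14.42 (ABCB5-negative). The largest differences in SW620 were those of CYBB, the phagocyte oxidase subunit, at 3.22 and FCER1G, an Fc receptor chain, at 2.45. CYBB, FCER1G and CSF1R were each above background on 1 of 8 arrays, the SW620 array labelled ABCB5-positive. The markers that went the other way in SW620 were C1QA at -0.35, C1QC at -0.32, C1QB at -0.20 and MSR1 at -0.14. The markers CD163, AIF1, C1QA, C1QB, MSR1 and FCGR3A were above background on 0 of 8 arrays, and CD163, AIF1 and FCGR3A are among the 12 counted as higher. The part of these transcripts in the SW620 values of the members was not tested. In COLO741, where IL1B differed, 4 of the same 16 markers were higher, with a median of -0.11, and in HCT116 and HT29 8 of 16 each, with medians of 0.01 and 0.002. Of 7 lymphocyte and NK markers measured, 3 were higher in the ABCB5-positive array in COLO741, 7 in HCT116, 2 in HT29 and 6 in SW620, with summed levels of 952 to 1111 over the ABCB5-positive arrays and 946 to 1001 over the ABCB5-negative arrays.

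**Figure D4:**
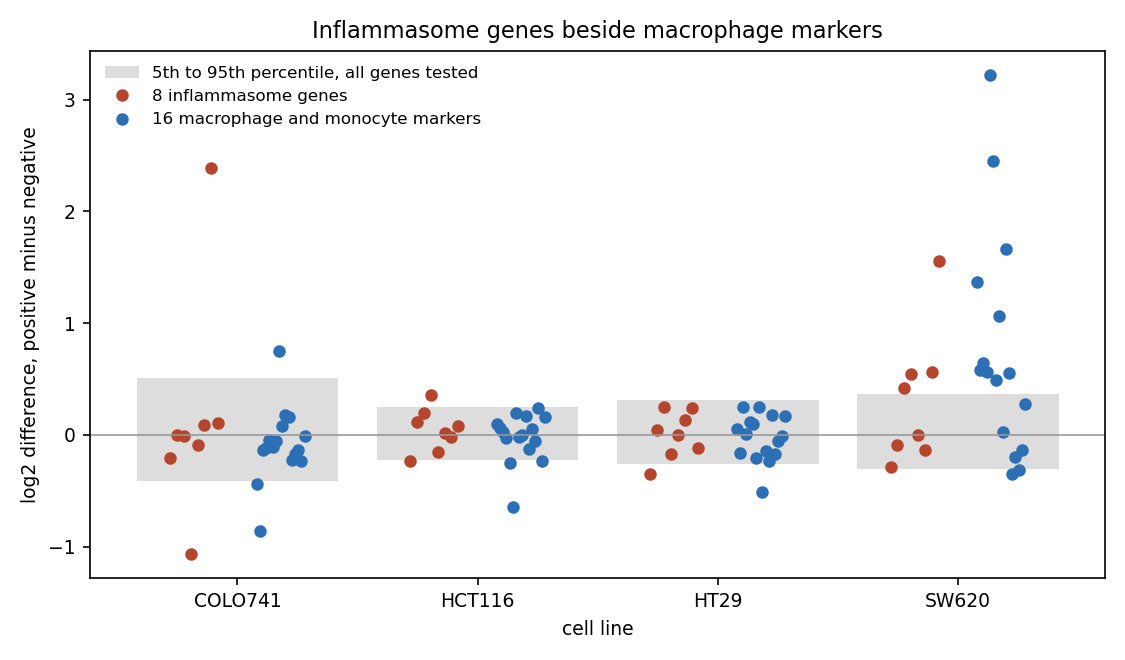
Log2 difference between arrays labelled ABCB5-positive and ABCB5-negative in each cell line, for the 8 inflammasome genes and 16 macrophage and monocyte markers. The grey band spans the 5th to 95th percentile of all genes tested in that line. The markers lie between -0.35 and 3.22 in SW620, where IL18 reaches 1.55, while in COLO741 IL1B reaches 2.39 with the markers between -0.86 and 0.75.

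Other genes of the pathway came from 7 lists of 69 genes, of which 62 were measured and 48 tested. Between the populations 0 of the 48 passed with limma, 3 had an unadjusted p under 0.05, all higher, beside 2.62% of all genes, and 26 of 48 were above 0, beside 48% of all genes. Between the lines 35 of the 48 passed the F test, beside 67.2% of all genes. Against the mean of the other lines COLO741 was higher for 12, beside 23.7% of all genes, and lower for 15, beside 26%. IFI16 and CARD16, which passed the filter only through COLO741, are among the 35 and among the 12. Nothing is therefore read from these counts about the lists.

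Among 13 other sensors, of which 12 were measured and 11 tested, 7 passed the F test between lines, beside 67.2% of all genes. IFI16, a DNA sensor of the AIM2 family encoded next to AIM2, read 11.60 (ABCB5-positive) and 11.72 (ABCB5-negative) in COLO741 and 5.17 to 6.27 on the other 6 arrays, all under background, and was at least 17.98-fold higher in COLO741. IFI16 passed the filter only through COLO741, so no test of it is given, though it is among the 7 counted above. NLRP2, an NLR protein that can bind PYCARD, averaged 10.04 in HCT116 and 5.88 to 5.97 in the other lines (limma F adjusted p = 2.28e-06). NLRP3, the best known sensor, was above background on 0 of 8 arrays, and its difference between populations was 0.19 ± 0.13 (SD, n = 4; unadjusted p = 0.0352 from limma, adjusted p = 0.898). MEFV, the pyrin gene, differed by -0.19 ± 0.18 (SD, n = 4; limma adjusted p = 0.898).

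Among the regulators 9 of 14 tested passed the same test, a share near those 67.2%. TXNIP, an oxidative stress protein that can bind NLRP3, averaged 7.17 in HCT116, under background on both arrays, and 12.38 to 13.44 in the other lines (limma F adjusted p = 6.05e-06). SERPINB1 and SERPINB9, protease inhibitors of which SERPINB1 restrains CASP1 activation, were lower in COLO741 than in the other lines (limma adjusted p = 5.61e-05 and 6.30e-06). SERPINB9 was under background on both COLO741 arrays, at least 6.66-fold lower there than over the other lines. SERPINB1 read 8.83 (ABCB5-positive) and 7.54 (ABCB5-negative, under background) in COLO741, and averaged 10.63 in HCT116, 12.80 in HT29 and 12.50 in SW620. PYDC1 differed between populations by -0.11 ± 0.08 (SD, n = 4; limma adjusted p = 0.898).

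Of the guanylate-binding proteins, which expose lipopolysaccharide to CASP4, 4 of 5 were measured and 2 tested. GBP2 differed by 0.34 ± 0.22 (SD, n = 4), higher in 4 of 4 lines, with an unadjusted p of 0.00961 and an adjusted p of 0.898 from limma, and was above background on 1 array. GBP3 averaged 8.34 in COLO741 and 8.80 in HT29 but 6.10 in HCT116 and 6.13 in SW620 (limma F adjusted p = 2.90e-05), high in the lines where PYCARD was high.

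Of the other pore formers 3 of 3 tested passed the F test, beside 67.2% of all genes. GSDME, which caspase-3 can cut, averaged 11.61 in COLO741, 8.43 in HCT116, 6.53 in HT29 and 8.24 in SW620, higher in COLO741 than in the other lines (limma adjusted p = 7.18e-06), of which HT29 was under background. GSDMB averaged 6.64 in COLO741, 7.48 in HCT116, 7.92 in HT29 and 7.56 in SW620, lower in COLO741, where it was under background (limma adjusted p = 0.00194). The HCT116 ABCB5-positive and SW620 ABCB5-negative arrays were also under background for GSDMB, which was above it on 4 of 8 arrays. NINJ1, which ruptures the membrane after pore formation, was above background on all 8 arrays and higher in COLO741 by 0.88 (limma adjusted p = 0.000921).

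On the receiving side, 10 of 10 receptor and signalling genes tested passed the F test, beside 67.2% of all genes. IL1RAP, the accessory chain that IL-1 signalling requires, averaged 12.22 in COLO741, 7.07 in HCT116, 8.54 in HT29 and 7.90 in SW620, higher in COLO741 than in the other lines (limma adjusted p = 1.28e-06), of which HCT116 was under background. IL1R1, the signalling receptor, was above background in HCT116 alone, at 8.82 against 5.58 to 6.85 in the other lines (limma F adjusted p = 1.31e-05). The difference of IL1R1 between populations was 0.23 ± 0.22 (SD, n = 4; unadjusted p = 0.0488 from limma, adjusted p = 0.898). IL1R2, the decoy receptor, averaged 9.53 in HT29 and 8.04 in SW620, against 6.70 in COLO741 and 6.94 in HCT116. COLO741, the line with IL1B above background, thus had IL1RAP bright and IL1R1 under background.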

How the data were processed

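The authors deposited log2 expression values for 33297 probe sets on 8 arrays, 1 per sorted population of each line, made with Affymetrix Expression Console per the submitters' processing notes. Its version and algorithm were not given in the sources used here. That the deposited values are log2 was inferred from their range of 2.99 to 15.24, and array medians of 8.03 to 8.10 were left as deposited. The number of arrays limits the precision.

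Gene names came from the platform annotation, with symbols updated by gene identifier against GRCh38.p14 (19429 of 19460 matched). Of the rest, 1754 named several genes and 12083 none. The probe set with the highest mean was taken per gene, and every member has 1. Differences were fitted with limma 3.58.1 in R 4.3.3 on 16910 genes, with cell line and sorted population in 1 model, empirical Bayes variances and two-sided p-values, adjusted over all genes by Benjamini-Hochberg at 0.05. Both arrays of a replicate number share a cell line, and their deviations from the group means correlated at 0.932 to 0.963 across genes, so the line was a block. The model was tested on simulated data. The members and lists were chosen with earlier results of these data known. Named genes were all members, and of each pathway list the 2 of smallest unadjusted p between populations and the 2 that passed between lines with the widest range, with NLRP3, CASP5, GSDME and IL1A added. For members ranging over 1 log2 unit the 3 genes nearest in pattern were added. Alternatives covered the block, the filter, scaling, probe set choice, exchanged COLO741 arrays and arrays left out.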

Additional observations from a re-analysis of the deposited data

Results flagged for a closer look

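Of 23 sets of 4 values, the ABCB5-positive levels, the ABCB5-negative levels and the within-line differences of the 8 members, leaving out the differences of PYCARD, by which it was chosen, 4 held a value far from the other 3 by Dixon's test, where chance alone gives about 1 in 20. The sets are not independent, since IL1B enters by both arrays of COLO741. The share of all genes so flagged was not computed, while 67.2% of all genes differed between lines by the limma F test. Nothing is thus read from this count about the members. Each line has 1 array per population, so line and array cannot be told apart in these values. IL1B in COLO741 stood apart in both populations, at 10.78 in the ABCB5-positive array against 6.40 to 6.68 in the other lines, and at 8.40 in the ABCB5-negative array against 6.12 to 6.42. CASP1 in the COLO741 ABCB5-negative array read 7.08, against 4.25 to 4.50 in the ABCB5-negative arrays of the other lines, all under background. The IL18 difference of 1.55 in SW620, where both values were under background, stood apart from -0.11 to 0.11 in the other lines.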

How the results depend on the processing

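Between the populations, 0 genes and 0 members passed in the main limma model and in all 11 alternatives, including the fit without the replicate block (no cell line), where 27 genes had an unadjusted p under 0.05, against 744 in the main model. The counts at an unadjusted p under 0.05 were 775 with the line as a random block, 574 with the COLO741 arrays exchanged, 801 after quantile normalization, 817 without the filter, 591 with the stricter filter at the 95th percentile of olfactory receptor probe sets, 737 with the mean over probe sets, and 526 to 805 when a line was left out. The median difference over the tested members other than PYCARD was 0.21. It was -0.0142 with the COLO741 arrays exchanged, 0.0242 without the filter (7 members) and 0.0242 with the stricter filter (3 members), and 0.0788 to 0.261 when a line was left out. With the COLO741 arrays exchanged the difference of IL1B was -0.40 and that of GSDMD -0.0194, both turned in sign. That of PYCARD was then -0.17. The difference of GSDMD ran from -0.0119 to 0.0788 when a line was left out, turning without HT29. GSDMD in COLO741 minus the other lines was 0.01, but -0.0172 after quantile normalization and -0.0346 to 0.0495 when an array was left out. The contrast of the COLO741 difference of IL18 with that of the other lines was -0.40, turned to 0.12 without SW620, and ran from -0.71 to 0.12 when a line other than COLO741 was left out. The number of members passing in that contrast was 0, and 0 to 1 when a line was left out, the 1 being IL1B without SW620. GSDMD lost its F test call between lines without either HCT116 array (limma adjusted p = 0.0649 and 0.0682). NLRC4 passed for COLO741 against the other lines after quantile normalization (limma adjusted p = 0.0262) and without the COLO741 or the SW620 ABCB5-negative array (0.0246 and 0.0323), and it passed the F test without the COLO741 ABCB5-negative array (0.0491). Members passing between lines numbered 4 to 6 by the F test and 4 to 5 for COLO741 against the other lines when an array was left out. The median difference of all genes was -0.01 after quantile normalization and -0.005 as deposited. The number of arrays and values under background, which hold all of CASP1, AIM2 and NLRC4, limit the rest.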

Other observations

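Some pathway genes had wide differences within 1 line, named here after their values were seen and with no test. IRAK3, a kinase-like brake on IL-1 receptor signalling, read 5.35 in SW620 cells labelled ABCB5-positive and 4.13 in SW620 cells labelled ABCB5-negative, both under background, in the array where the macrophage markers were higher. In the same line IL1R2 differed by 0.82, and IFI16 by 1.10 from values under background on both arrays. In COLO741 SERPINB1 differed by 1.28, beside the IL1B difference of 2.39, with its ABCB5-negative value just under background. In HCT116 TXNIP differed by 0.72, with both values under background.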
